A study of Mus musculus with 18 samples.

Results

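The genes described here are 37 regulators of messenger RNA splicing, which are the SR proteins (Srsf), the TRA2 proteins, the heterogeneous nuclear ribonucleoproteins (Hnrnp) and the CDC-like kinases (Clk). They were found by symbol, pseudogenes left out, and comprise 11 Srsf, 2 Tra2, 20 Hnrnp and 4 Clk genes among 55401 gene lines of the endothelial table and 22612 of the EO771 table. The family was selected on measured values, because Srsf6 and Srsf2 were among the genes with the largest statistics in HEC tumour against HEC normal, and that comparison is given below as a description without a test. The members are Srsf1 to Srsf7 and Srsf9 to Srsf12, Tra2a and Tra2b, Clk1 to Clk4, and Hnrnpa0, a1, a2b1, a3, ab, c, d, dl, f, h1, h2, h3, k, l, ll, m, r, u, ul1 and ul2.

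RNA was sequenced from 18 libraries in 6 groups of 3. High endothelial cells (HECs), which line the venules where lymphocytes enter lymph nodes, came from lymph nodes without tumour (HEC normal) and from lymph node metastases (HEC tumour). Blood vessel endothelial cells (BECs) came from the mammary fat pad (BEC normal) and the primary tumor (BEC tumour). For both tumour groups the study had inoculated mice with EO771 cells in mammary fat pads. All endothelial cells were of wild-type C57BL/6 mice and were sorted as CD45- CD31high cells that were PNAd+ (HECs) or PNAd- (BECs). EO771, a mouse breast cancer cell line, was cultured with vehicle, which was DMSO in saline, or with 12-HETE, a hydroxylated fatty acid that the lipoxygenase ALOX12 makes from arachidonic acid. The study asked what sets tumour-associated HECs apart and what 12-HETE does to tumour cells. No label says whether replicates were separate mice or cultures. For both the endothelial and the EO771 RNA-seq, the study's legends give 3 independent experiments, without saying which mice or cultures each held. The p-values measure the spread between these libraries, and how much of it lies between mice or cultures is not known. HECs and BECs also come from unlike organs, and a difference between them cannot be told apart from one between lymph node and fat pad. The study digested lymph node, fat pad and tumour with different enzymes and for different times. A difference between BEC tumour and BEC normal, or between HECs and BECs, therefore cannot be told apart from one of digestion.

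SR proteins carry RNA recognition motifs and a tail rich in arginine and serine, bind exons and recruit the spliceosome, while hnRNPs coat nascent transcripts and often silence splice sites. TRA2 proteins are related exon-binding activators, and CLK kinases phosphorylate the SR tails in the nucleus, which sets where SR proteins reside and how they act. Many of these genes hold down their own level by splicing in a poison exon, an ultraconserved exon with an early stop codon that sends the transcript to nonsense-mediated decay. In the GENCODE vM21 annotation (GRCm38) 25 of the 37 genes (67.6%) had a transcript marked for nonsense-mediated decay, against 20.8% of protein-coding genes and 25.8% of those with at least 2 transcripts. A retained-intron transcript was annotated for 28 (75.7%), against 41.4% and 52.2%. The members had a median of 9 annotated transcripts, against 3 and 4 in these sets. The shares are not matched for transcript number, so nothing is read from them. All 4 Clk genes and both Tra2 genes had a decay transcript, as had 9 of 11 Srsf and 10 of 20 Hnrnp genes. Counts per gene add these transcripts to the coding ones, so a level below does not say how much RNA was productive.

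The sequences upstream of 6 genes are shown, because Srsf6, Srsf2 and Tra2a are among the members that differed most between HEC groups and because TGACGT recurs in the others. The genes shown therefore hold TGACGT more often than the members do. Srsf1, which differed more between HEC groups than Srsf6 and Tra2a, lacks TGACGT in its window and is not shown. The RefSeq start-site windows (GRCm38.p6, 250 bases before to 50 after) matched 34 of the 37 genes, without Clk1, Hnrnpll and Hnrnpul2. Both strands were searched for TGACGT, the core of the cyclic-AMP response element, for the TATA box TATAAA, the CCAAT box CCAAT, the GC box GGGCGG, the ETS motif CCGGAAG, the E-box CACGTG and an interferon-response pattern of 2 GAAA runs parted by 2 bases. None of these letter strings contains another. TGACGT was found in 11 of the 34 windows (32.4%), against 8.37% of the 27025 genes with a window. GGGCGG was found in 29 (85.3% against 38.2%), CCAAT in 19 (55.9% against 41.1%), TATAAA in 4 (11.8% against 15.7%), CCGGAAG in 7 (20.6% against 9.93%), CACGTG in 6 (17.6% against 8.09%) and the interferon-response pattern in 0 (against 3.99%). The lines below give 100 bases that end at or before the start site, read 5′ to 3′ on the gene's strand, with TGACGT or its reverse complement in capitals.
Srsf6 (chr2:162931408-162931507, plus strand): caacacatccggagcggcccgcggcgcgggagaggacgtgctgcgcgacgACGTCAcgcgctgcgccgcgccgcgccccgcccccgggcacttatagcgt
Srsf3 (chr17:29032531-29032630, plus strand): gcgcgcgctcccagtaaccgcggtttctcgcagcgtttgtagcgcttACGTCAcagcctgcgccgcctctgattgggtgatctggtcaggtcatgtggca
Tra2a (chr6:49264053-49264152, minus strand): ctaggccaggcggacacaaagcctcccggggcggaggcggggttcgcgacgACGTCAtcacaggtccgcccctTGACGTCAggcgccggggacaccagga
Tra2b (chr16:22266015-22266114, minus strand): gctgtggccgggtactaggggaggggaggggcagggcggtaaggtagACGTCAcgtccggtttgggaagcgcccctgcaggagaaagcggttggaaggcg
Clk4 (chr11:51263002-51263101, plus strand): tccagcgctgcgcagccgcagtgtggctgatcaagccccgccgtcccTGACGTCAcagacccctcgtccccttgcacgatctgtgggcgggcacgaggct
In Srsf2, which has no TGACGT in its window, the capitals mark TATAAA.
Srsf2 (chr11:116853095-116853194, minus strand): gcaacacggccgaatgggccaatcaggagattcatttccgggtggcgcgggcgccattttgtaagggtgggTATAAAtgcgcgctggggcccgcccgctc
Tra2a holds 2 separate sites, and its site nearer the start and the Clk4 site read the same on both strands over 8 bases. A letter match is a description of the sequence and says nothing of a factor's binding.

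Deposited values summed to 56410964 to 79357993 per endothelial library and to 17294591 to 18624179 per EO771 library. Endothelial values rose in steps of about 3.78, and the totals divided by the step were 14.9 M to 21.0 M. Of the 37 genes 36 passed a mean value of 10 in each table, where 18511 and 11602 genes were tested. Srsf12 did not pass. Its deposited values were 0 to 19 in the endothelial libraries and 0 in all 6 EO771 libraries. High endothelial markers summed to 975 to 1331 CPM (counts scaled to each library total) in HEC normal and 2225 to 3057 in HEC tumour, against 26.3 to 29.1 in BEC normal and 10.7 to 13.7 in BEC tumour. Ccl21a and Chst2 were at 0 in all HEC libraries and Madcam1 in all of HEC normal, and Chst4 spanned 0.0596 to 297 CPM in HEC normal. Pan-endothelial markers summed to 2494 to 3654 CPM over the 12 endothelial libraries, but single markers differed between groups. Cldn5 had a mean of 257 CPM in BEC normal and means of 0.354 to 1.09 in the other endothelial groups. In BECs with tumour, mean Kdr fell from 353 to 72.1 CPM and mean Esam from 287 to 80.9. Mean Tie1 rose there from 391 to 435 CPM and mean Erg from 89.1 to 128. Leukocyte markers (10 genes) summed to 616 to 1019 CPM in BEC tumour, mostly Lyz2, against 6.24 to 12.3 in BEC normal, 6.34 to 7.56 in HEC normal and 4.09 to 7.57 in HEC tumour. Fibroblast and pericyte markers (9 genes) summed to 885 to 901 CPM in BEC normal, mostly Acta2, and to 102 to 134 in BEC tumour. Epithelial and tumour cell markers (6 genes) summed to 3.71 to 6.98 and 15.2 to 93.0 in these 2 groups. In HEC normal and HEC tumour they summed to 28.7 to 31.9 and 31.9 to 34.6 CPM, mostly Krt19. Lymphatic endothelial markers (5 genes) summed to 341 to 362 CPM in BEC normal and 201 to 222 in BEC tumour. They summed to 282 to 338 in HEC normal and 350 to 360 in HEC tumour. These sums were mostly Lyve1 and Flt4, with Pdpn in BECs. Over the endothelial groups mean Prox1 was only 0.0473 to 0.387 CPM and mean Reln 0.0172 to 0.634 CPM. The part of these cells in the BEC results below was not tested.

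In HECs, SR protein RNA was higher with tumour. Srsf2, Srsf1, Srsf6 and Tra2a had more than double the normalised count in HEC tumour, and Srsf7 and Srsf5 came close to it. All values in this paragraph come from the comparison that chose the family. The sum of the high endothelial markers was also higher in HEC tumour, and its part was not tested. In bulk RNA, fewer cells of a type and less RNA per cell cannot be told apart. Srsf2, an exon-binding SR protein that also acts in transcription elongation, had normalised counts of 10221, 10175 and 9515 in HEC normal and 28561, 29506 and 27741 in HEC tumour. Its log2 fold change was 1.52 ± 0.07 (SE), a 2.87-fold difference. Srsf2 lies at chr11:116849901-116853094 (minus strand) and Srsf6 at chr2:162931528-162937121 (plus strand) on GRCm38. Srsf6, an SR protein with a pair of RNA recognition motifs, had 7339.9, 7882 and 7554 and 19239, 18729.6 and 19143 in the same order (log2 fold change 1.33 ± 0.05, 2.51-fold). The 3 tumour libraries lay far above the 3 normal ones for both genes, with little spread within a group. Srsf1, the founding SR protein, had 3368, 3094 and 3412 in HEC normal and 8316, 8273 and 9453 in HEC tumour (log2 fold change 1.40 ± 0.18, 2.64-fold). Tra2a had 5266, 3613 and 3390.4 in HEC normal and 10051, 6129 and 10288 in HEC tumour (log2 fold change 1.11 ± 0.20). The groups did not overlap for Tra2a, but replicate 1 of HEC normal and replicate 2 of HEC tumour came near each other, and the log2 fold change ranged from 0.98 to 1.33 over the alternatives tried. The members just inside and just outside a log2 fold change of 1 were Tra2a at 1.11 and Srsf7 at 0.98.

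Among the remaining SR genes, Srsf7, which acts in splicing and export, differed by 0.98 ± 0.05 on the log2 scale and Srsf5 by 0.82 ± 0.07. Tra2b (0.67 ± 0.06), Srsf10 (0.62 ± 0.09) and Srsf3 (0.54 ± 0.10) were also higher in every HEC tumour library than in any HEC normal library. Srsf4 (0.05 ± 0.08), Srsf9 (-0.04 ± 0.06) and Srsf11 (-0.05 ± 0.11) had overlapping libraries. Summed over the 10 Srsf genes, normalised counts were 69154 ± 1704 (SD, n = 3) in HEC normal, 126337 ± 2161 in HEC tumour, 106316 ± 1469 in BEC normal and 81887 ± 1805 in BEC tumour. The largest change downwards was that of Clk3, one of the 4 kinases that act on SR proteins, with 5759.8, 5693 and 4715 in HEC normal and 3661, 3268 and 3326 in HEC tumour (log2 fold change -0.66 ± 0.09). Hnrnp genes spread around 0, from -0.31 (Hnrnpl) to 0.70 (Hnrnpf), with Hnrnpd (0.64 ± 0.08), Hnrnph1 (0.61 ± 0.12), Hnrnpab (0.47 ± 0.07) and Hnrnpu (0.40 ± 0.12), a nuclear scaffold protein, higher in every tumour library. Their median was 0.16, against 0.72 for the Srsf genes, through which the family was chosen in this comparison, and 0.02 for all genes tested. By the call rule used in the other comparisons, and as a description of members chosen here, 4 members were past an adjusted p of 0.05 and a 2-fold change upwards, beside 4.58% of all genes, and 0 downwards, beside 3.21%. At the adjusted p alone 17 were higher, beside 16.9%, and 5 lower, beside 18.5%, and nothing is read from these counts. Exon bases shared with an overlapping gene made up 25.29% in Srsf2 (Mettl23 and Mfsd11), 43.02% in Srsf4, 29.08% in Hnrnpab, 26.45% in Hnrnpf, 15.2% in Clk3 and 14.69% in Hnrnpm, and whether reads were assigned by strand is not given in the sources used here.

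**Figure D1:**
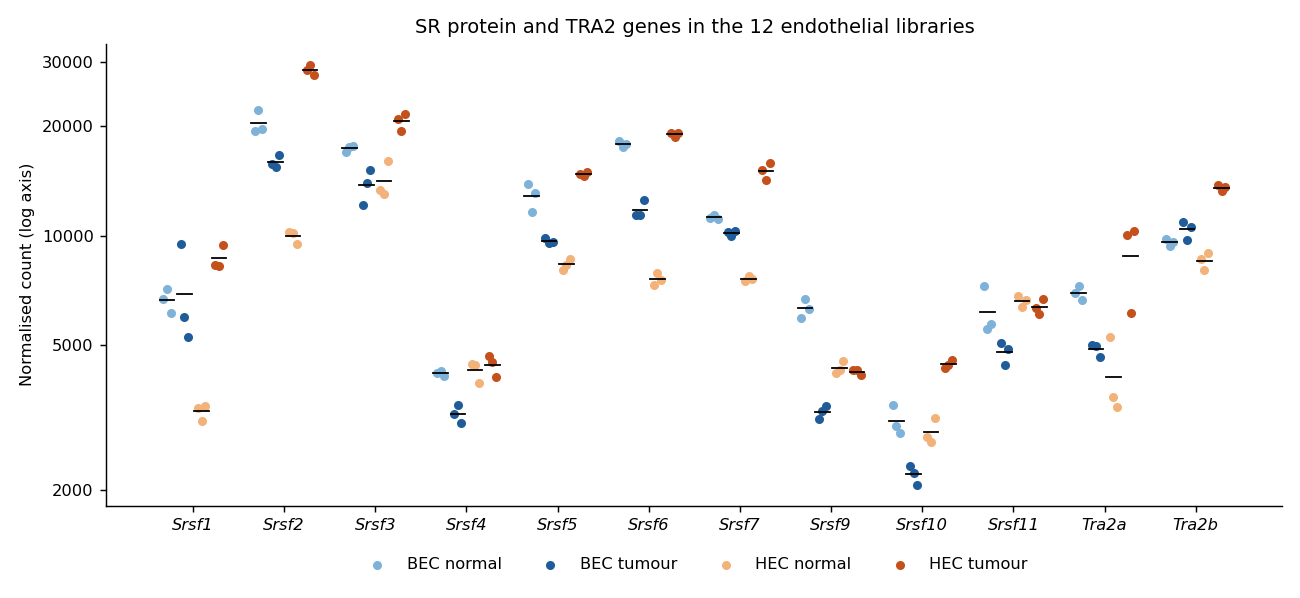
Normalised counts (log axis) of 10 SR protein and 2 TRA2 genes in the 12 endothelial libraries; each point is a library, bars are group means and colours are the 4 groups. The HEC tumour points of Srsf2 (27741 to 29506) lie above all other libraries, while the HEC normal points (9515 to 10221) lie below all others.

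In BECs, SR protein RNA was lower with tumour, led by Srsf9, Srsf6, Srsf10 and Srsf5. This comparison shares no library with the one that chose the family. Of 10 Srsf genes 9 fell at an adjusted p under 0.05 (DESeq2) and 0 rose, while edgeR gave 8 and 0 and an unadjusted p under 0.05 gave 9 and 0. Over all members 21 of 36 fell, beside 27.2% of all genes tested, and 5 rose, beside 26.5%, against 18 and 6 by edgeR. With the 2-fold change added, 1 member (Hnrnpa3, treated below) was higher, beside 12.4%, and 0 were lower, beside 10.8%, as by edgeR and at an unadjusted p under 0.05. The median log2 fold change was -0.37 for Srsf, -0.20 for Tra2, -0.07 for Hnrnp and -0.12 for Clk genes, against 0.01 for all genes. Beside the leukocyte markers of the BEC tumour libraries, 11 of 22 stress and dissociation genes fell and 4 rose there (median log2 fold change -0.29). Fat pad and tumour were also digested differently, and the part of these was not tested.

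Srsf9, a small SR protein with a pair of RNA recognition motifs, fell the most, with 5954, 6691 and 6314 normalised counts in BEC normal and 3133, 3309.5 and 3416 in BEC tumour. The groups lay well apart, at a log2 fold change of -0.94 ± 0.06, adjusted p = 7.25e-47 (DESeq2), a 1.92-fold fall. In HECs its change was -0.04 ± 0.06. Srsf6 fell from 18220.1, 17549 and 17888 to 11391, 11449.5 and 12528 (log2 fold change -0.60 ± 0.05, adjusted p = 8.89e-30, DESeq2). Srsf2 fell from 19418, 22239 and 19628 to 15799, 15497 and 16733 (log2 fold change -0.35 ± 0.07, adjusted p = 7.93e-07, DESeq2). For both genes every tumour library lay below every normal one. The other Srsf genes that fell ranged from -0.49 (Srsf10) to -0.14 (Srsf7), and the adjusted p of Srsf7 reached 0.113 over the alternatives. Srsf1 did not pass the test (0.05 ± 0.18, adjusted p = 0.838, DESeq2), and its replicate 1 of BEC tumour stood apart, at 9487 against 5968 and 5272. Without that library the log2 fold change of Srsf1 was -0.24, with an adjusted p of 0.041 (DESeq2). Tra2a fell (-0.51 ± 0.20, adjusted p = 0.0209, DESeq2), though over the alternatives its adjusted p reached 0.0716, and Tra2b did not pass (0.12 ± 0.06, adjusted p = 0.0901, DESeq2), though its adjusted p was 0.0126 to 0.292 over the alternatives.

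Among hnRNPs, Hnrnpdl, a relative of AUF1, fell the most in BECs with tumour, from 9749, 9881 and 9477 to 5662, 5509 and 5493 (log2 fold change -0.80 ± 0.04, adjusted p = 3.91e-89, DESeq2). Hnrnpk, a poly(C)-binding hnRNP, fell by 0.57 ± 0.08 on the log2 scale, and Hnrnph1, Hnrnph3, Hnrnpa0, Hnrnpd, Hnrnpc, Hnrnpab and Hnrnpr fell by less, from -0.50 to -0.22, where Hnrnpr had an adjusted p of up to 0.0923 over the alternatives. Hnrnpul2, a member of the hnRNP U group, rose from 16241, 15215 and 16290.1 to 25754, 24064 and 23930.4 (log2 fold change 0.63 ± 0.05, adjusted p = 2.66e-42, DESeq2). In all, 9 of 20 Hnrnp genes fell and 4 rose, the others that rose being Hnrnpa1 (0.26 ± 0.06) and Hnrnpll (0.21 ± 0.07) beside Hnrnpa3. The CLK kinases split. Clk1, a kinase that phosphorylates SR proteins and itself, fell from 4023, 2490.0 and 3172 to 2343, 1861 and 1616 (-0.74 ± 0.18, adjusted p = 8.62e-05, DESeq2). Clk3 rose from 3940.1, 3884 and 4052 to 5991, 5374 and 5265 (0.49 ± 0.09, adjusted p = 1.2e-06, DESeq2), with no overlap between the groups. Clk4 fell (-0.30 ± 0.12, adjusted p = 0.0285, DESeq2), with an adjusted p of up to 0.165 over the alternatives, and Clk2 did not pass (0.07 ± 0.09, adjusted p = 0.519, DESeq2).

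Set side by side, the changes with tumour in the 2 cell types had opposite signs for 19 members that were higher in HEC tumour and lower in BEC tumour, 7 of them Srsf genes, and for 5 with the reverse signs. The change in HECs less that in BECs was 1.93 ± 0.07 for Srsf6, 1.87 ± 0.10 for Srsf2, 1.62 ± 0.28 for Tra2a and 1.35 ± 0.26 for Srsf1 on the log2 scale. It was -1.14 ± 0.13 for Clk3 and -0.88 ± 0.06 for Hnrnpul2, the most negative values beside Hnrnpa3. The comparison that chose the family is a term of this difference, which is therefore not tested. HEC tumour had the highest mean of the 4 endothelial groups for 21 of 36 members, among them 8 Srsf genes. No share over all genes tested stands beside this count or the counts of opposite signs. The HEC tumour libraries also took part in choosing the family, so nothing is read from these counts.

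**Figure D2:**
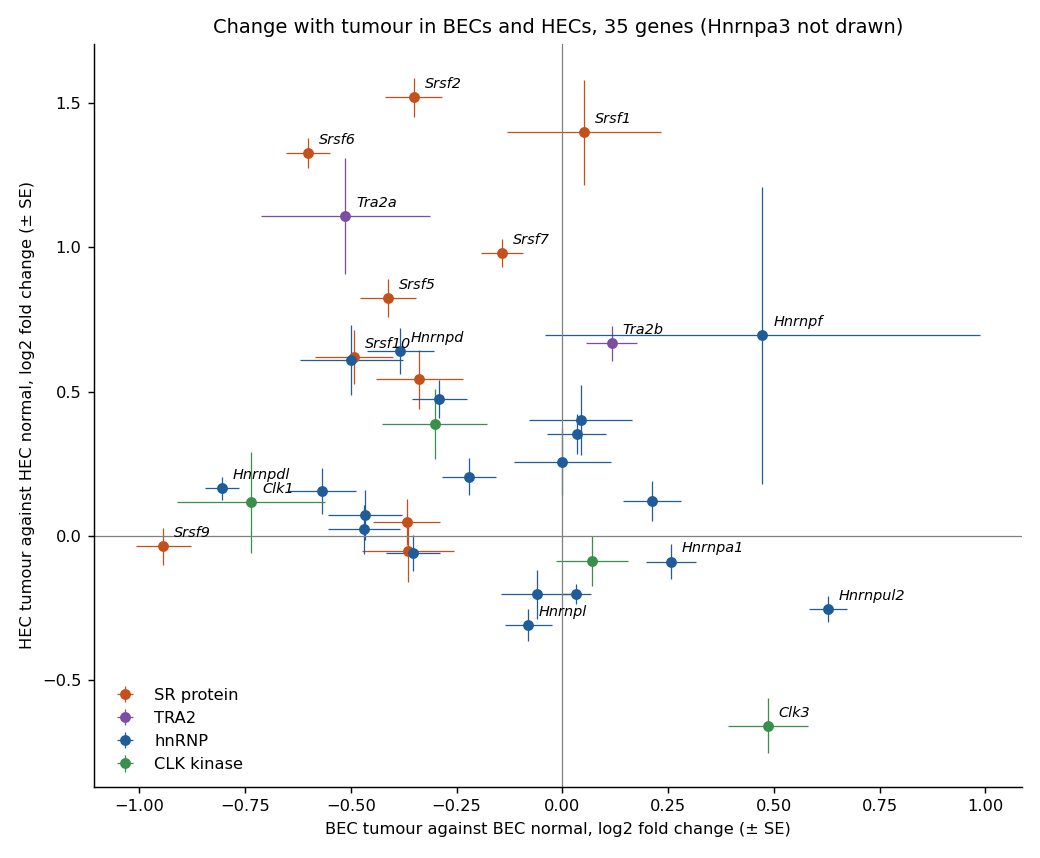
Log2 fold change with tumour in BECs (horizontal axis) and in HECs (vertical axis) for 35 members, with standard errors as bars and colours for the 4 classes. Srsf2, Srsf6, Tra2a and Srsf7 lie in the upper left quadrant and Clk3, at 0.49 and -0.66, in the lower right.

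Between the cell types of normal tissue, 7 of 10 Srsf genes were lower in HECs than in BECs at an adjusted p under 0.05 (DESeq2) and 0 higher, and both edgeR and an unadjusted p under 0.05 also gave 7 and 0. Srsf6, Srsf2 and Srsf1 were more than 2-fold lower. These 3 were the members called lower at an adjusted p under 0.05 (DESeq2) and a fold over 2, beside 15.1% of all genes, and 1 (Hnrnpa3) was called higher, beside 17.1%. At the adjusted p alone 14 of 36 were lower, beside 31.9% of all genes, and 8 higher, beside 31.4%. This comparison shares the HEC normal libraries with the one that chose the family, so the low HEC normal values of the chosen genes enter both. The counts above include Srsf6 and Srsf2 and are not independent of that choice. Stress and dissociation genes were higher in HEC normal for 12 of 22 and lower for 6, and fibroblast and pericyte markers summed to 25.9 to 27.8 CPM there against 885 to 901, and their part was not tested.

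Srsf6 was at 17886 ± 336 in BEC normal and 7592 ± 273 in HEC normal (mean ± SD, n = 3; log2 fold change -1.24 ± 0.05). Srsf2 was at 20428 ± 1572 and 9970.4 ± 395 (log2 fold change -1.03 ± 0.07). The HEC normal values of Srsf6 and Srsf2 took part in choosing the family, so no p is given for them here. Srsf1 was at 6665 ± 512 and 3292 ± 172 (log2 fold change -1.02 ± 0.18, adjusted p = 8.01e-08, DESeq2). Srsf1 and Srsf2 sat at the 2-fold threshold, and edgeR called Srsf6 alone, as did DESeq2 with TMM or upper-quartile scaling or without replicate 2 of BEC normal, while the direction held for all 3. Srsf5, Srsf7, Srsf9, Srsf3 and both Tra2 genes were also lower (-0.77 for Tra2a to -0.17 for Tra2b), whereas Srsf4, Srsf10 and Srsf11 did not pass. By edgeR 11 members in all were lower, with 1 Tra2 gene among them. Over the alternatives the adjusted p reached 0.0634 for Srsf3 and 0.0748 for Tra2b, as it reached 0.178 for Hnrnpa2b1 and 0.0834 for Hnrnpr, which were also lower. Hnrnpk and Hnrnph1, which binds G-runs, were lower (-0.74 ± 0.08 and -0.76 ± 0.12). Hnrnpul2 (0.89 ± 0.05) and Hnrnpa0 (0.68 ± 0.09) were higher. The median of the Hnrnp genes was -0.04 and turned positive under TMM and upper-quartile scaling, at 0.0017 and 0.0083, so no direction is given for that class. All 4 Clk genes had positive values, of which Clk3 (0.44 ± 0.09, adjusted p = 7.41e-06) and Clk4 (0.38 ± 0.12, adjusted p = 0.00349) passed in DESeq2.

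In tumour tissue, SR genes were mostly higher in HECs. All 10 Srsf genes had higher means in HEC tumour than in BEC tumour, and 9 passed an adjusted p of 0.05 (DESeq2), the exception being Srsf1. Over the members 23 of 36 were higher, beside 25.9% of all genes, and 3 lower, beside 28.4%. Called with a 2-fold change were Srsf10, Hnrnpa0, Clk1 and Clk4 upwards, beside 11.2%, and 0 downwards, beside 10.7%, with 0 also by edgeR and at an unadjusted p under 0.05. This comparison shares the HEC tumour libraries with the one that chose the family. Its counts include Srsf6 and Srsf2, whose HEC tumour values took part in that choice, and are not independent of it. It also sets libraries with few leukocyte markers against BEC tumour libraries with 616 to 1019 CPM of them, and 15 of 22 stress and dissociation genes were higher in HEC tumour and 3 lower (median log2 fold change 0.86). The part of either was not tested.

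Srsf10, an SR protein that represses splicing when dephosphorylated, had 2331, 2223 and 2071 normalised counts in BEC tumour and 4345, 4418 and 4568 in HEC tumour (log2 fold change 1.01 ± 0.09, adjusted p = 1.87e-26, DESeq2). It lay at the threshold, with a log2 fold change of 0.96 to 1.06 over the alternatives. Hnrnpa0, an intronless gene for an AU-rich element binding hnRNP, had 6974, 7636 and 7933 and 18032, 17675 and 16664 (log2 fold change 1.22 ± 0.09, adjusted p = 3.26e-43, DESeq2). Its HEC level was alike in both tissues, at 16579 ± 171 and 17457 ± 709.5 (SD, n = 3), and BEC tumour had the lowest mean of the 4 groups. Clk1 had 2343, 1861 and 1616 in BEC tumour and 3959.6, 4583 and 4232 in HEC tumour (log2 fold change 1.13 ± 0.18, adjusted p = 5.5e-10, DESeq2). Clk4, its nearest relative, had 1355, 1255 and 1104 and 2534, 2499.6 and 2786 (log2 fold change 1.07 ± 0.12, adjusted p = 2.18e-17, DESeq2). Every HEC tumour library lay above every BEC tumour library for both kinases. Without replicate 3 of BEC tumour 2 members were called, Hnrnpa0 and Clk1. Clk3 was lower there (-0.70 ± 0.09, adjusted p = 1.51e-12, DESeq2), as were Hnrnpl (-0.35 ± 0.06, adjusted p = 3.06e-09) and Hnrnpa1 (-0.14 ± 0.06, adjusted p = 0.036). The adjusted p of Hnrnpa1 reached 0.205 over the alternatives, and that of Hnrnpa2b1, higher at 0.16, reached 0.164. Hnrnpdl (0.97 ± 0.04), Hnrnpd (0.93 ± 0.08), which encodes AUF1, Tra2a (0.85 ± 0.20) and Srsf2 (0.84 ± 0.07) were the next highest. Hnrnpa3 had the largest value, 1.72 ± 0.98, adjusted p = 0.126 (DESeq2), and did not pass.

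**Figure D3:**
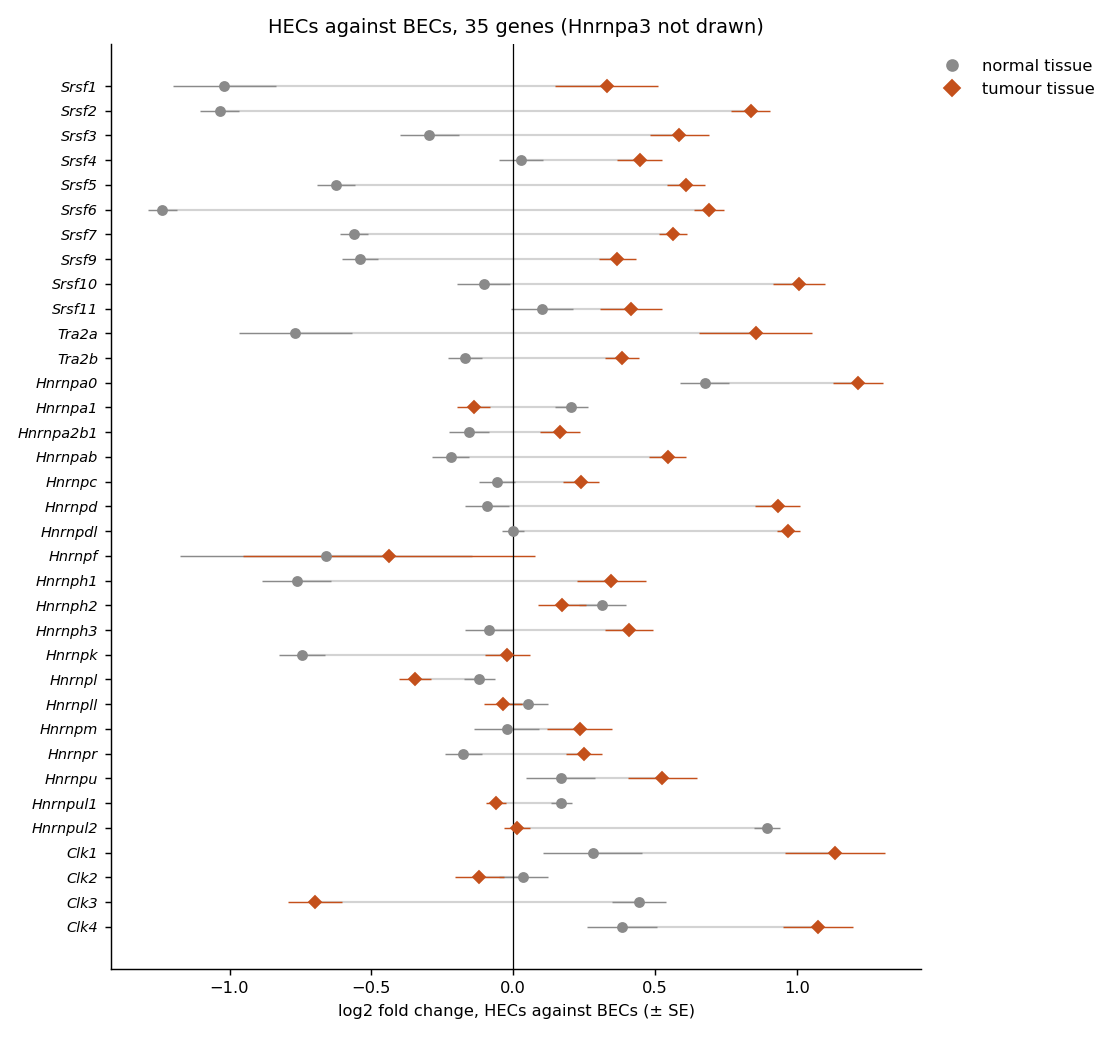
Log2 fold change of HECs against BECs for 35 members in normal tissue (circles) and tumour tissue (diamonds), with standard errors as bars. Most SR and TRA2 genes lie left of 0 in normal tissue and all lie right of 0 in tumour tissue, while Clk3 and Hnrnpa1 move from right to left.

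Hnrnpa3 and Hnrnpf gave the least steady values. Hnrnpa3, an A/B-type hnRNP, had 122, 114 and 126 normalised counts in BEC normal, 739, 3154 and 606 in BEC tumour, 5108, 6971 and 857 in HEC normal and 1594, 1749 and 11456 in HEC tumour. Libraries of a group differed up to 8.13-fold, as in 0.252% of the genes with a mean of at least 1000 in HEC normal. Its own line rose in BECs by 3.64 ± 0.98, adjusted p = 0.000576 (DESeq2), and exceeded BEC normal in HEC normal by 5.16 ± 0.98, adjusted p = 4.15e-07 (DESeq2). Of its 50-base words, 26.95% occur in transcripts of 45 other genes, and 19 of these, all with Gm names, hold at least 5% each. Summed with the lines of those near copies, an alternative chosen after the spread was seen, normalised counts were 29150.1, 20557 and 23636 in BEC normal, 33469.7, 32270.0 and 33258 in BEC tumour, 47829, 49298 and 44384 in HEC normal and 41720.4, 42453 and 52859 in HEC tumour. The coefficient of variation of the own line and of the sum was 95.6% and 1.94% in BEC tumour, 72.7% and 5.35% in HEC normal, 115% and 13.6% in HEC tumour, and 4.96% and 17.8% in BEC normal. The own line made up 0.493% of the sum in BEC normal and 10.8% in HEC tumour. The log2 fold change of the sum was 0.43 ± 0.13 in BECs with tumour (adjusted p = 0.00197), 0.95 ± 0.13 for HEC normal against BEC normal (adjusted p = 8.2e-13) and 0.47 ± 0.13 for HEC tumour against BEC tumour (adjusted p = 0.000738), all by DESeq2. How reads that match several places were counted is not given in the sources used here, so the large Hnrnpa3 changes are uncertain.

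**Figure D4:**
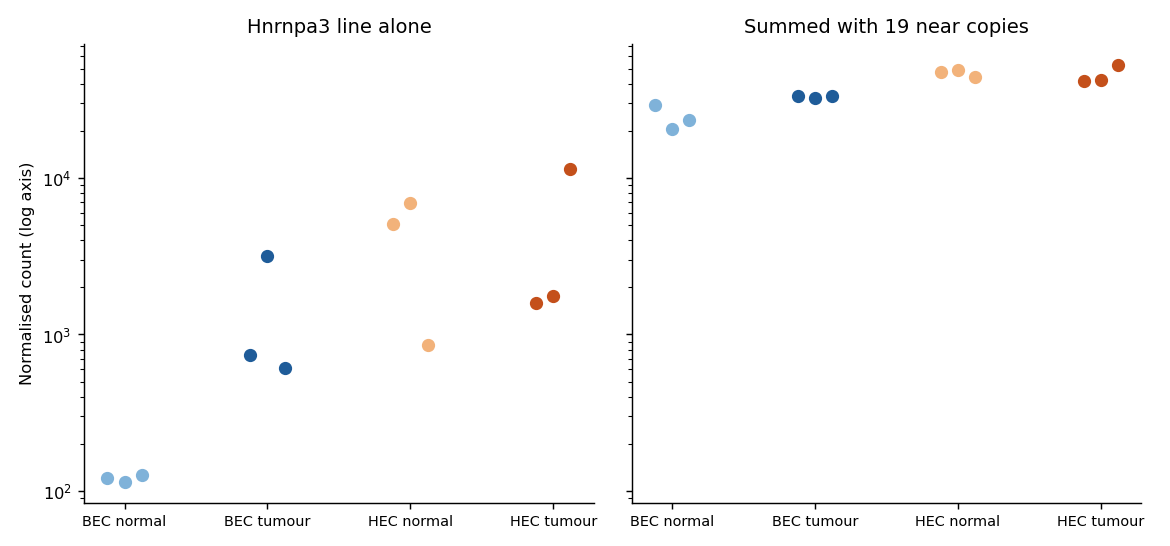
Normalised counts (log axis) of Hnrnpa3 in the 12 endothelial libraries, from its own line (left) and summed with 19 near copies (right); each point is a library. The own line spans 114 to 11456 and the sum 20557 to 52859.

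Hnrnpf, which binds G-runs like Hnrnph1, had 21124, 10791 and 53611 in HEC normal and 23158, 46312 and 69001 in HEC tumour, and 43.22% of its words occur elsewhere. Summing with 8 near copies left it uneven, at 32873, 21567 and 57586 and 37041, 56331 and 72957. Without replicate 3 of HEC normal its change for HEC normal against BEC normal was -1.49, with an adjusted p of 0.00365 (DESeq2), against -0.66 ± 0.51, adjusted p = 0.261 with all libraries. Hnrnpa1 shares 28.23% of its words, and its change in BECs with tumour was 0.26 ± 0.06 from its own line and 0.26 ± 0.06 summed. Its own line held 54067 to 71845 over the 12 libraries. The next share was 15.91%, in Hnrnph2.

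In EO771 cells, 12-HETE was followed by higher counts of hnRNPs and of several SR genes. Of 36 members 19 rose at an adjusted p under 0.05 (DESeq2), beside 22.7% of all genes tested, and 0 fell, beside 24.2%, while edgeR gave 18 and 0 and an unadjusted p under 0.05 gave 24 and 0. These 19 are 12 Hnrnp, 5 Srsf, 1 Tra2 (Tra2b) and 1 Clk gene, and edgeR did not call Tra2b, whose adjusted p reached 0.217 over the alternatives. Called with a 2-fold change was 1 member, Hnrnpa3, beside 2.38%, and 0 downwards, beside 7.79%. The median log2 fold change of the members was 0.31, against 0.0012 for all genes tested. Summed over the 20 Hnrnp genes, normalised counts were 104085 ± 9869.6 (SD, n = 3) with vehicle and 142799 ± 2116 with 12-HETE, and over the 10 Srsf genes 32953 ± 2445 and 42439.9 ± 693. No library here took part in choosing the family.

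Hnrnpa3 rose from 1315, 1126 and 1801 with vehicle to 2774, 2869 and 2989.7 with 12-HETE (log2 fold change 1.03 ± 0.17, adjusted p = 1.5e-08, DESeq2). The groups lay apart, and here its own line was 68.1% to 70.9% of the sum with the 2 near copies in the table, whose log2 fold change was 0.97 ± 0.16. The member lies at the 2-fold threshold and missed it in 5 alternatives, with 0.88 to 1.24 over all of them. Hnrnph1 rose from 3812, 3854 and 5011 to 7783, 8009 and 8142 (log2 fold change 0.92 ± 0.13, adjusted p = 1.09e-11, DESeq2). Hnrnpa2b1, an A/B-type hnRNP that also sorts RNAs for transport, rose from 12226, 10417 and 14155 to 20518, 21237 and 21708 (log2 fold change 0.79 ± 0.13, adjusted p = 4.13e-09, DESeq2). For all 3 genes every 12-HETE library lay above every vehicle library. The other Hnrnp genes that rose were Hnrnph2 (0.73 ± 0.16), Hnrnpa1 (0.70 ± 0.15), Hnrnpm (0.67 ± 0.11), Hnrnpll (0.63 ± 0.12), Hnrnpr (0.48 ± 0.13), Hnrnpu (0.44 ± 0.12), Hnrnpk (0.41 ± 0.11), Hnrnpc (0.38 ± 0.08) and Hnrnpab (0.30 ± 0.08).

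Srsf1 rose most among the SR genes, from 4157, 3802 and 4531 to 7087, 6812 and 7015 (log2 fold change 0.74 ± 0.10, adjusted p = 1.52e-13, DESeq2), followed by Srsf10 (0.62 ± 0.13), Srsf2 (0.55 ± 0.11), Srsf6 (0.34 ± 0.07) and Srsf3 (0.32 ± 0.11), where the adjusted p of Srsf3 reached 0.0943 over the alternatives. Clk1 rose from 1001, 996 and 1421 to 1758, 1929.8 and 1995 (log2 fold change 0.73 ± 0.16, adjusted p = 2.29e-05, DESeq2), and the other 3 Clk genes did not pass, with values of -0.09 to -0.03. The lowest value was that of Srsf4, at 318, 314 and 321 and 253, 269 and 299 (log2 fold change -0.22 ± 0.14, adjusted p = 0.185, DESeq2), which did not pass although the libraries did not overlap. Vehicle libraries varied more than 12-HETE libraries, with a median coefficient of variation of 9.84% against 2.84% over genes with a mean of at least 1000. Without replicate 3 of vehicle Hnrnph1 also passed the 2-fold change, at 1.06. Among stress and dissociation genes the calls were lower, with 14 of 20 called lower and 5 higher at the adjusted p alone, and epithelial markers summed to 3056 to 3985 CPM with vehicle and 2043 to 2093 with 12-HETE. Their part was not tested.

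**Figure D5:**
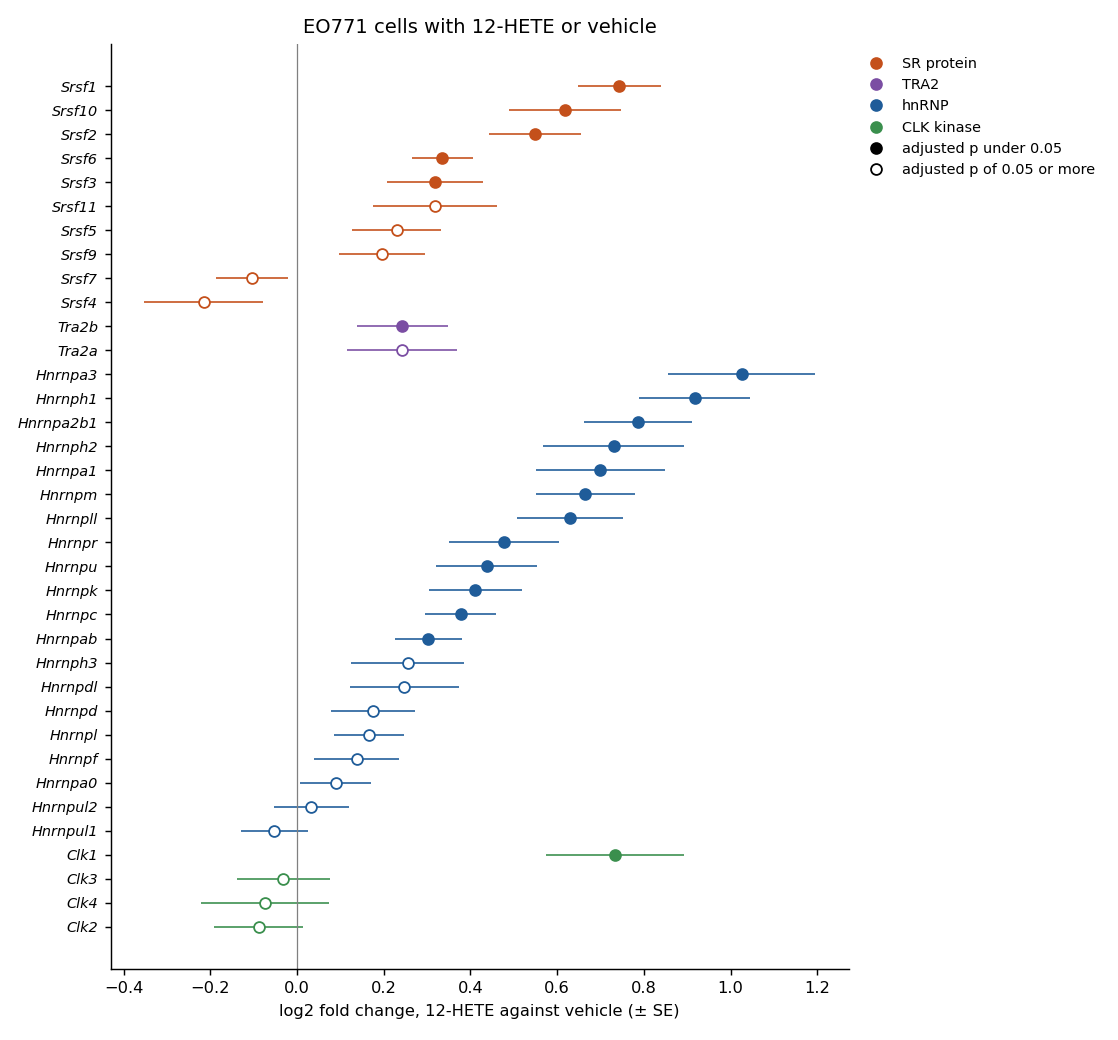
Log2 fold change of 36 members in EO771 cells with 12-HETE against vehicle, with standard errors as bars; filled points have an adjusted p under 0.05. Of the filled points all 19 lie right of 0, and Hnrnpa3 at 1.03 is the highest.

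Levels compared per kilobase of merged exon, within a group, put some hnRNPs at the top, while Hnrnpr was among the lowest members in each group. In BEC normal the highest were Hnrnpab (18722 normalised counts per kilobase), Hnrnpa1 (18030.1), Hnrnpf (14778) and Hnrnpa2b1 (7922), followed by Srsf2 (6906). The Clk genes were low in each group, at 214 (Clk4) to 656 (Clk3) in BEC tumour. In HEC tumour Srsf2 reached 9669.6, beside Hnrnpa2b1 at 9092, whereas in HEC normal it had 3371. In EO771 cells with vehicle Hnrnpa1 led (2968), followed by Hnrnpab (2484, and 3064 with 12-HETE) and Hnrnpa2b1 (1863, and 3213 with 12-HETE). The 2 tables were normalised separately, and no level is compared between them.

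Other genes of the pathway came from lists chosen beside the members, and their counts at an adjusted p under 0.05 (DESeq2) stand beside the shares of all genes tested. These shares were 26.5% higher and 27.2% lower in BECs with tumour, 25.9% and 28.4% in HEC tumour against BEC tumour, and 22.7% and 24.2% in EO771 cells. Of 27 SR-related and nuclear speckle proteins, HEC tumour exceeded BEC tumour in 14 and fell short of it in 4, with a median log2 fold change of 0.67. Pnn, which sits in speckles and the exon junction complex, was called higher there (1.57 ± 0.16, adjusted p = 4.9e-21, DESeq2), as was Arglu1 (1.23 ± 0.09, adjusted p = 1.29e-37, DESeq2). The same list had 12 higher and 2 lower with 12-HETE in EO771 cells (median 0.39), and 3 higher and 8 lower in BECs with tumour (median -0.01). In HEC tumour against HEC normal its median was 0.27, without a test.

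Among 12 kinases, phosphatases and importers of SR proteins, 3 rose and 3 fell in BECs with tumour, and 4 rose and 1 fell in EO771 cells. Srpk2, a cytoplasmic SR kinase, rose in BECs with tumour (1.10 ± 0.08, adjusted p = 1.55e-39, DESeq2) and in HEC normal exceeded its BEC normal level (1.39 ± 0.08, adjusted p = 1.79e-62, DESeq2), as did Ppp1cb, a catalytic subunit of the phosphatase PP1 (1.13 ± 0.08, adjusted p = 4.94e-50, DESeq2). Dyrk1b, a kinase related to the CLKs, fell in EO771 cells with 12-HETE (-1.43 ± 0.25, adjusted p = 1.08e-07, DESeq2), and differed by -2.03 ± 0.17 between HEC tumour and HEC normal.

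The core spliceosome had 8 of 46 genes higher and 24 lower in BECs with tumour, beside 26.5% and 27.2% of all genes (median -0.17), and 18 higher and 6 lower in EO771 cells with 12-HETE, beside 22.7% and 24.2% (median 0.16). Its median in HEC tumour against HEC normal was -0.0031, without a test. Nonsense-mediated decay factors had 3 of 18 higher and 11 lower in BECs with tumour, and 6 of 17 higher and 2 lower in EO771 cells. Smg1, the kinase that starts decay, rose in BECs with tumour (1.26 ± 0.20, adjusted p = 7.1e-10, DESeq2). Of the hnRNP-type proteins with other symbols, 9 of 17 were higher and 2 lower in EO771 cells, and 3 of 19 were higher and 4 lower in BECs with tumour, among them Pcbp3, which fell by 2.43 ± 0.11 (adjusted p = 3.29e-111, DESeq2). Of the cell-type-linked splicing regulators 12 of 24 fell and 5 rose in BECs with tumour, with Mbnl1 (1.78 ± 0.34) and Mbnl3 (1.96 ± 0.20) higher and Mbnl2 (-1.14 ± 0.22) lower, all RNA-binding proteins of the muscleblind family.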

How the data were processed

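RNA-seq was analysed from 12 endothelial libraries and 6 EO771 libraries. The authors aligned reads with STAR to GRCm38 and took gene counts with featureCounts. The EO771 table as deposited by the authors holds raw counts per gene symbol. The endothelial table as deposited by the authors holds whole numbers in steps of about 3.78, treated as estimated counts per Ensembl gene, and how the steps arose is not given in the sources used here. The labels and the methods name different library kits. Symbols came from GENCODE vM21, with 260 identifiers unmatched.

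Members and lists were chosen with earlier results of these data known. Each table was fitted separately in DESeq2 1.42.0 (R 4.3.3) with its size factors, 1 term for the group, genes with a mean value of at least 10, two-sided Wald tests and Benjamini-Hochberg adjustment over all genes tested, with the default DESeq2 rules on outlying and low values kept. Called means an adjusted p under 0.05 and a fold over 2, as in the study. HEC tumour against HEC normal chose the family and is given with no p, and its counts are a description. Normalised counts are values divided by DESeq2 size factors. CPM values divide by the library total. Every member is named, with values per library for those called in a tested comparison, those past a log2 fold change of 1 in HECs with tumour and the largest change in each direction. The endothelial comparisons share groups with each other. Deviations of same-numbered vehicle and 12-HETE libraries correlated at 0.124, 0.224 and 0.395. Libraries of unlike numbers were not correlated, so these values cannot show a pairing, and no label gives one. Alternatives were edgeR 4.0.16, other size factors, other filters, the replicate block, only the 2 groups compared, values divided by their step, each library left out, other call rules and, added later, sums with near copies (genes holding at least 5% of a member's 50-base words). The fits were tested on simulated data.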

Additional observations from a re-analysis of the deposited data

Results flagged for a closer look

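For 17 members the libraries moved with tumour in opposite directions in the 2 endothelial cell types, every HEC tumour library lying on one side of all HEC normal libraries and every BEC tumour library on the other side of all BEC normal libraries. No share over all genes tested stands beside this count, and its HEC part comes from the comparison that chose the family. Nothing is read from the count. The difference between the 2 changes was not tested, since HEC tumour against HEC normal chose the family. As the change in HECs less that in BECs on the log2 scale, it was positive for 14. Among SR and TRA2 genes these were Srsf6 (1.93), Srsf2 (1.87), Tra2a (1.62), Srsf5 (1.24), Srsf7 (1.12), Srsf10 (1.11) and Srsf3 (0.88). Among hnRNPs these were Hnrnph1 (1.11), Hnrnpd (1.03), Hnrnpdl (0.97), Hnrnpab (0.77), Hnrnpk (0.72) and Hnrnpr (0.43), and among the kinases Clk4 (0.69). It was negative for Clk3 (-1.14), Hnrnpul2 (-0.88) and Hnrnpa1 (-0.34). Leukocyte markers summed to 6.24 to 12.3 CPM in BEC normal, 616 to 1019 in BEC tumour, 6.34 to 7.56 in HEC normal and 4.09 to 7.57 in HEC tumour, and their part was not tested.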

How the results depend on the processing

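Without the fold threshold, 17 members were higher and 5 lower in HEC tumour against HEC normal, which is a description since that comparison chose the family. DESeq2 put 5 and 21 members in BEC tumour against BEC normal, 8 and 14 in HEC normal against BEC normal, 23 and 3 in HEC tumour against BEC tumour, and 19 higher in EO771 cells. A test against a log2 fold change of 1 left 2 higher in HECs with tumour (again a description), 0 higher in BECs with tumour, 1 lower in HEC normal against BEC normal, 0 higher in HEC tumour against BEC tumour and 0 higher in EO771 cells. In HEC normal against BEC normal 1 member was lower under edgeR, TMM or upper-quartile size factors. Total-count size factors left 0 higher in EO771 cells. Summing with near copies, chosen after the data were seen, left 0 higher in BECs with tumour, in HEC normal against BEC normal and in EO771 cells, since Hnrnpa3 was the member called. For the other moves the cause was not tested.

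Leaving out 1 library at a time gave 0 to 1 higher and 1 to 3 lower in HEC normal against BEC normal, 2 to 5 higher in HEC tumour against BEC tumour and 0 to 2 higher in EO771 cells (0 without vehicle replicate 1, vehicle replicate 2 or 12-HETE replicate 3). DESeq2 gave no adjusted p for Hnrnpa3 in HEC normal against BEC normal when any HEC normal library was left out, at log2 fold changes of 4.63 to 5.65. In HEC tumour against HEC normal Hnrnpa3 moved from 0.19 to -1.37 without replicate 3 of HEC tumour, and against BEC tumour it was 0.16 without that library and 2.87 (adjusted p = 0.00687, DESeq2) without replicate 2 of BEC tumour. Srsf1 in HEC tumour against BEC tumour was 0.62 (adjusted p = 1.22e-08, DESeq2) without replicate 1 of BEC tumour. The replicate block changed none of the counts (4 and 0 in HECs, 1 and 0 in BECs, 1 and 3 in HEC normal against BEC normal, 4 and 0 in HEC tumour against BEC tumour, 1 and 0 in EO771 cells). Same-numbered endothelial libraries correlated at -0.0714 to 0.237, and no label pairs them. No alternative turned a called direction. With 3 libraries a group, an exact permutation test of a single gene could not go below 0.1.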
